A study of Mus musculus with 40 samples.

Results

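The genes described here are 10 transcripts that astrocytes raise when they become reactive: Gfap, Vim, Serpina3n, Lcn2, Cd44, Osmr, Steap4, Cp, Timp1 and S1pr3. They were chosen by symbol from the 20953 genes in the table of the dorsal hippocampus, and all 10 passed the filter that left 14173 genes to test. Each of 40 mice gave 1 library, named by its label (H3F, HDAC3flox/flox; OWT and YWT, old and young wildtype; BV, trained; HC, homecage). Old HDAC3flox/flox mice (18 to 20 months, both Hdac3 alleles flanked by loxP sites) gave 8 libraries 60 min after training in object location memory (OLM) and 8 from the homecage. Old wildtype littermates (HDAC3+/+, 18 to 20 months) gave 6 after OLM and 6 from the homecage. Young wildtype C57BL/6J mice (2 to 4 months) gave 6 and 6. All the old mice, of both genotypes, had received AAV-CaMKII-Cre in the dorsal hippocampus before tissue was taken, and the CaMKII promoter drives Cre in excitatory neurons rather than in astrocytes. The young mice came from an earlier study and were not described as infused, so in every old against young comparison the age of the mice cannot be told apart from the study and the infusion. Old wildtype mice OWT-HC-110A and OWT-BV-104C stood apart from their groups, with 6 and 5 of their 10 member values within or below the range of young mice. The sources used here give no check of the infusion or identity of each mouse, so whether these 2 mice were treated like the other old mice was not tested. In old against young wildtype mice, 10 members were called higher in the homecage with or without OWT-HC-110A, and after OLM 10 without OWT-BV-104C and 9 with it. With all mice kept, 32.1% of all genes tested were called higher in the homecage and 19.1% after OLM. The shares without these mice are not given.

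Astrocytes that meet injury, infection or inflammatory cytokines enlarge and switch on a program of filament, secreted and receptor genes, which is called reactivity. Gfap (chromosome 11, 102887336 to 102897200 in GRCm38.p6) and Vim (chromosome 2, 13574311 to 13582826) encode intermediate filaments of the astrocyte cytoskeleton. Serpina3n (a protease inhibitor), Lcn2 (lipocalin, which binds iron-carrying siderophores) and Timp1 (an inhibitor of metalloproteinases) are secreted. Cd44 (a hyaluronan receptor), Osmr (the receptor subunit for oncostatin M) and S1pr3 (a receptor for sphingosine 1-phosphate) lie on the cell surface. Steap4 (a metalloreductase) and Cp (ceruloplasmin, a ferroxidase) handle iron and copper. Several of these genes are known targets of the cytokine pathway through JAK kinases and the transcription factor STAT3. In whole tissue, more cells of a type and more RNA per cell cannot be told apart.

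The promoters of 3 members are shown because they hold letter patterns of factors that act in this program. Sequences are from RefSeq (GRCm38.p6), 5′ to 3′ on the strand of the gene, and run from 250 bases before the gene's start to 50 bases from the start on, with the start base as position 0. The Gfap window lies on the reverse strand of chromosome 11 from 102897151 to 102897450, the Steap4 window on the forward strand of chromosome 5 from 7960222 to 7960521, and the Lcn2 window on the reverse strand of chromosome 2 from 32387690 to 32387989. Capitals mark matches to TTCNNNGAA (STAT), TTGCNNAA (C/EBP) or the κB motif, each searched on both strands.
Gfap: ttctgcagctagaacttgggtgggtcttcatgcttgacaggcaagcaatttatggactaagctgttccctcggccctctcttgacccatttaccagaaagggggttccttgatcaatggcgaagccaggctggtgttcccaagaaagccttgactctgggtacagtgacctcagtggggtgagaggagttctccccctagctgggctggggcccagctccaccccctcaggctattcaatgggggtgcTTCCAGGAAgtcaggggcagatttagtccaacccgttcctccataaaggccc
Steap4: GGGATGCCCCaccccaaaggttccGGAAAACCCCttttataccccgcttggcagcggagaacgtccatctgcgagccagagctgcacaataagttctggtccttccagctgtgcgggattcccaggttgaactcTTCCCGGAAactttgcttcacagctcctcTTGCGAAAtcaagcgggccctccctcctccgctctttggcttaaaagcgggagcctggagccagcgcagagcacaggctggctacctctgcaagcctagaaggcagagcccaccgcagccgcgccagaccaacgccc
Lcn2: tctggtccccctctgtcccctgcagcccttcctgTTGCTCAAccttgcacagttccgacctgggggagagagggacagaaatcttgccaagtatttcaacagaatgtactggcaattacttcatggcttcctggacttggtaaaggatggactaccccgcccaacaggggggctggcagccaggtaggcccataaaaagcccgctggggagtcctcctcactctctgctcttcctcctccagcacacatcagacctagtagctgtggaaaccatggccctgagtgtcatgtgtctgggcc
The STAT pattern was found in Gfap (from position -2) and Steap4 (from -116), and 8.3% of all 32851 promoter windows hold it. The C/EBP pattern was found in Steap4 (from -87), Lcn2 (from -216) and Cp (from -70), against 10.8% of all windows. The κB pattern was found in Steap4 (from -250 and from -226) and Vim, against 4.51% of all windows, and the AP-1 pattern TGANTCA in Cp and Osmr, against 7.81%. The pattern TATAAA, not capitalised above, was found in Vim, Cp and Steap4, against 13.6%. Cp had a window from 19956804 to 19957103 on chromosome 3, which holds its AP-1 pattern. Another, from 19956999 to 19957298, holds its C/EBP and TATAAA patterns. Positions in Cp count from position 0 of the window and not from the gene's start at 19956933. The windows of Osmr, Cd44 and Serpina3n also had a position 0 other than the gene's start. Serpina3n, Cd44, Timp1 and S1pr3 held none of these letters in this window. A match is a description of letters and not a binding site.

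The median of every member was higher over the 28 old mice than over the 12 young mice, and old mice spread widely. Values are RPKM, mapped reads scaled to exon length and library size. Gfap stood between 90.4 and 111.1 RPKM in the 12 young mice, and all 28 old mice were above that range. Serpina3n and Lcn2 were also above the young range in 28 of 28 old mice, and Cd44, Osmr and Timp1 in 27. Vim and S1pr3 were above it in 26, Cp in 20 and Steap4 in 16. The shares of all genes with a higher median or a like separation over these mice are not given. These counts therefore do not set the members apart from other genes. In old against young wildtype mice, 9.07% of all genes were higher without overlap in the homecage and 7.42% after OLM. Among old mice, Gfap spanned 121.3 to 794 RPKM, Vim 22.8 to 642 RPKM and Lcn2 0.314 to 272 RPKM.

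**Figure D1:**
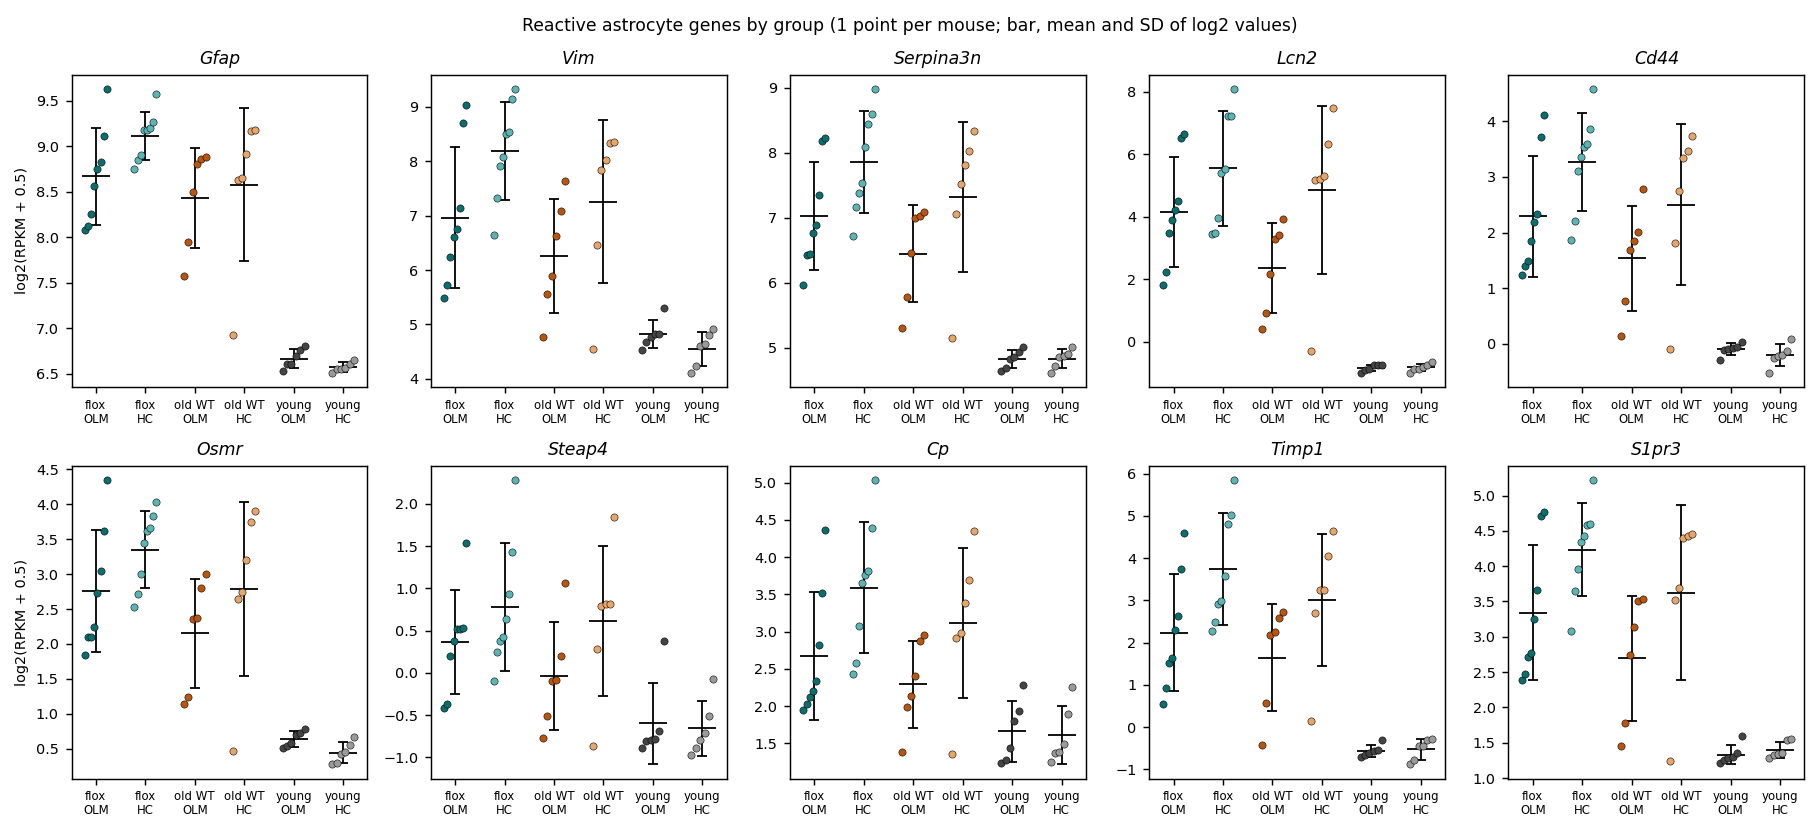
Level of the 10 genes in each mouse, as log2(RPKM + 0.5) on the y axis, in 6 groups on the x axis (flox, old HDAC3flox/flox; WT, wildtype; HC, homecage). Points are mice and bars are the mean and SD of the log2 values; for Gfap the young mice sit together between 90.4 and 111.1 RPKM, below all 28 old mice.

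Old and young wildtype homecage mice were compared first. Gfap had 581, 121.3, 396, 401, 574 and 482 RPKM in the 6 old mice, and between 90.4 and 100.02 RPKM in the 6 young mice. The groups did not overlap, although old mouse OWT-HC-110A stood close to the young mice. The log2 fold change, on log2(RPKM + 0.5), was 2.01 (SE 0.31, adjusted p = 0.0015 by limma with Benjamini-Hochberg adjustment over 14173 genes). Vim, its filament partner, had 260, 22.8, 228, 87.9, 320 and 324 RPKM in old mice, against 16.8 to 29.7 RPKM in young mice. Here the old mouse at 22.8 RPKM lay inside the young range and the other 5 lay above it (log2 fold change 2.70, SE 0.57, adjusted p = 0.0044 by limma).

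Of the secreted members, Lcn2 and Timp1 had the 2 largest fold changes of the 10. Lcn2 had 80.5, 0.314, 39.3, 36.0, 177 and 35.5 RPKM in old homecage mice, and at most 0.135 RPKM in young homecage mice, 1 of which was at 0. All 6 old mice were above all 6 young mice, with a log2 fold change of 5.69 (SE 0.99, adjusted p = 0.0023 by limma), which the added 0.5 makes smaller than the change in RPKM. Timp1 had 24.6, 0.598, 16.2, 5.98, 8.998 and 8.95 RPKM in old mice, against 0.0435 to 0.328 RPKM in young mice (log2 fold change 3.53, SE 0.59). Serpina3n had 322, 34.8, 225, 132, 260 and 182 RPKM in old mice, against 23.9 to 31.7 RPKM in young mice (log2 fold change 2.48, SE 0.43). Neither gene overlapped between old and young mice. Serpina3n belongs to a family of 11 closely related genes in the table, of which only Serpina3g (4.28 RPKM on average over 40 libraries) and Serpina3f (1.49 RPKM) passed the filter besides Serpina3n (135 RPKM). Reads that matched several places were dropped, so the values of this family are uncertain.

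The 3 receptor genes had log2 fold changes of 2.22 to 2.71, and the genes of metal handling had the 2 lowest of the 10. Osmr had 8.74, 0.891, 6.17, 5.75, 14.4 and 12.9 RPKM in old homecage mice, against 0.713 to 1.08 RPKM in young ones (log2 fold change 2.34, SE 0.46). Cd44 had 0.440 to 12.8 RPKM in old mice, against 0.194 to 0.559 RPKM in young mice (log2 fold change 2.71, SE 0.54). S1pr3 had 1.87 to 21.5 RPKM in old mice, against 1.93 to 2.42 RPKM in young mice (2.22, SE 0.46). For these 3 receptors OWT-HC-110A was the old mouse that overlapped with the young ones. Cp had 2.06 to 20.0 RPKM in old mice, against 1.88 to 4.29 RPKM in young mice (1.51, SE 0.40). Steap4 had 0.0503 to 3.08 RPKM in old mice, against 0.0115 to 0.449 RPKM in young mice (1.27, SE 0.36), the lowest fold change of the 10. In all, 10 of 10 members were called higher (adjusted p between 0.0015 and 0.015 by limma), with a median log2 fold change of 2.41, against 0.05 over all genes tested. Lcn2, Timp1, Steap4 and Cd44 averaged 0.067, 0.204, 0.148 and 0.372 RPKM in young homecage mice, below the filter of 0.5 RPKM. They passed it through the old mice, so a lower call was hardly possible for them. Of all genes tested, 32.1% were called higher and 17.7% lower. The groups did not overlap for 4 members, and 9.07% of all genes were higher in the same way. Under median-ratio scaling the split over all genes was 3640 higher and 3445 lower, and under quantile normalization 2453 and 5311, against 4552 and 2511 as deposited. Quantile normalization placed the median of all genes at -0.10, and all 10 members stayed higher and called under both scalings.

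**Figure D2:**
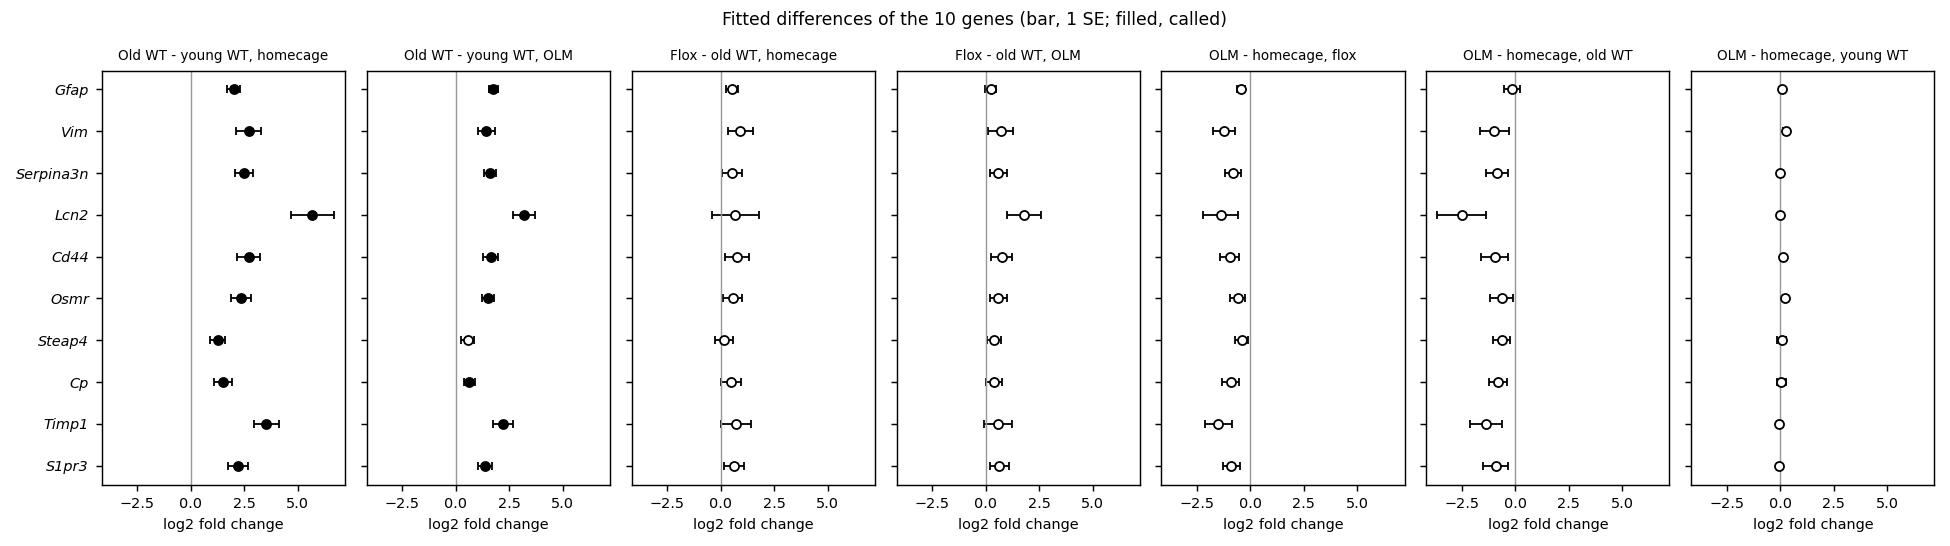
Fitted log2 fold change on the x axis for each member on the y axis in 7 comparisons, with bars of 1 SE and filled points for called genes. Old against young wildtype has 10 filled points in the homecage and 9 after OLM, and the other 5 panels have none.

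After OLM, other mice of the same ages were compared. Gfap had 362, 190, 464, 448, 247 and 471 RPKM in old wildtype mice, and between 91.8 and 111.1 RPKM in young mice, again without overlap (log2 fold change 1.76, SE 0.20, adjusted p = 0.00015 by limma). Lcn2 had 3.95, 0.821, 9.24, 10.3, 1.40 and 14.6 RPKM in old mice, against at most 0.0966 RPKM in young mice (log2 fold change 3.19, SE 0.52). In this comparison 9 of 10 members were called higher, with a median of 1.56, and 19.1% of all genes were called higher and 8.81% lower. Young OLM means of Lcn2 (0.060), Timp1 (0.179), Steap4 (0.197) and Cd44 (0.436 RPKM) were again below the filter of 0.5 RPKM. Under median-ratio scaling the split over all genes was 2382 higher and 1694 lower, and under quantile normalization 1760 and 3150, against 2712 and 1248 as deposited. The groups did not overlap for 5 members, against 7.42% of all genes. Cp had the weakest call (log2 fold change 0.63, SE 0.26, adjusted p = 0.12 by limma), which was lost when any 1 of 8 mice was left out (adjusted p between 0.15 and 0.24), and kept without OWT-BV-104C, OWT-BV-116C, YWT-BV-1915 or YWT-BV-1923. The call of Cp was also lost without the filter on low values (adjusted p = 0.20 by limma) and in a model of all 40 libraries (adjusted p = 0.46). Steap4 was not called (log2 fold change 0.57, SE 0.30, adjusted p = 0.23). It was called without young mouse YWT-BV-1923 (adjusted p = 0.072 by limma) and without old mouse OWT-BV-104C (adjusted p = 0.12).

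Young mouse YWT-BV-1923 had 0.800 RPKM of Steap4 and 4.35 RPKM of Cp, the highest values of the 12 young mice. The same library had a summed level of 9243 RPKM over 8 choroid plexus genes such as Ttr, which carries thyroid hormone in cerebrospinal fluid, while the median of its group was 46.6 RPKM. Young homecage mouse YWT-HC-1931, with 0.449 RPKM of Steap4 and 4.29 RPKM of Cp, had 3747 RPKM over these genes, against a group median of 64.7 RPKM. Old OLM mouse OWT-BV-127C, with the highest Steap4 of its group (1.59 RPKM) but not the highest Cp, had 8529 RPKM (group median 160 RPKM). Old mice H3F-BV-118D (6107 RPKM) and H3F-HC-124B (4170 RPKM) were highest of their groups in 0 members. YWT-BV-1923 also had the highest Gfap (111.1), Vim (38.9) and S1pr3 (2.52 RPKM) of the 12 young mice, and the lowest Serpina3n of its group (24.5 RPKM). The part of choroid plexus RNA in the levels of the members was not tested.

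Old mice differed widely from each other, and the members moved together between them. Mouse OWT-HC-110A, an old wildtype homecage mouse, had the lowest value of its group in 10 of 10 members, and 6 of its 10 values lay within or below the young range. Mouse OWT-BV-104C, an old wildtype OLM mouse, was lowest of its group in 10 of 10 members, with 5 values within or below the young range. Old HDAC3flox/flox homecage mouse H3F-HC-117B was highest of its group in 8 of 10 members, with 506 RPKM of Serpina3n and 57.2 RPKM of Timp1. The 2 old HDAC3flox/flox OLM mice H3F-BV-108D and H3F-BV-113D held the highest values of that group between them, 4 members in H3F-BV-108D and 6 in H3F-BV-113D.

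**Figure D3:**
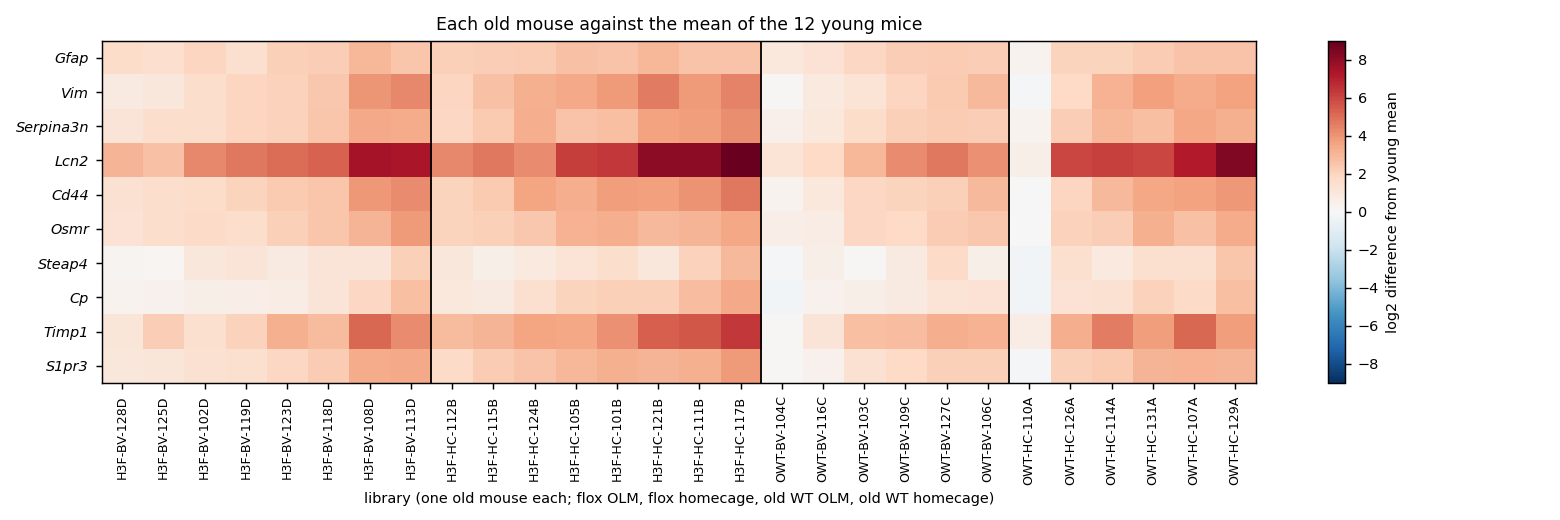
Each of the 28 old mice (x axis, by group, flox OLM, flox homecage, old wildtype OLM and old wildtype homecage) against the mean of the 12 young mice for each member (y axis); colour is the difference in log2(RPKM + 0.5). Mice OWT-HC-110A and OWT-BV-104C are pale in nearly all rows, and Lcn2 and Timp1 are darkest in mouse H3F-HC-117B.

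Within groups, every member followed Gfap across old mice. After subtraction of the group means, Pearson's r with Gfap ran from 0.64 (Steap4) to 0.93 (S1pr3) over 28 old mice, and Spearman's rho from 0.59 to 0.86. For S1pr3 the permutation p of r was 1e-05, the smallest that 100000 permutations within groups can give, and for Steap4, which had the highest, it was 0.00078. These are unadjusted, and 18 relations were computed in old and young mice. Without mice OWT-HC-110A and OWT-BV-104C, the 2 farthest from the median of Gfap, r ran from 0.46 to 0.88. Over the 45 pairs of members, r had a median of 0.90 in old mice. In the 12 young mice r with Gfap ran from -0.32 (Timp1) to 0.57 (Vim), and 1 of 9 had an unadjusted permutation p under 0.05 (Vim, 0.0375). Whether the relation differed between old and young mice was not tested, and young levels vary little.

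Genes outside the list that behaved most like it were found by their correlation with the mean z score of the members, with group means removed, over 40 libraries. They were Tnfrsf1a (r = 0.98), a receptor for tumor necrosis factor, Bcl3 (0.96), a partner of NF-κB, Ggta1 (0.96), Pdpn (0.96), which encodes podoplanin, Cnn3 (0.95), a calponin, Sbno2 (0.94), Icam1 (0.94), an adhesion molecule, and Il13ra1 (0.94). The other lists were read by the same measure. Here r ran from 0.73 to 0.88 for T cell genes and from -0.16 to 0.88 for microglia genes. It ran from -0.70 to 0.91 for homeostatic astrocyte genes and from -0.77 to -0.33 for neuronal genes. High r was thus not particular to the members. The libraries share depth and tissue composition, so this is a description. Icam1 averaged 15.8 ± 11.1 RPKM in old wildtype homecage mice and 0.910 ± 0.205 RPKM in young homecage mice (SD, n = 6 each).

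Hdac3 itself was lower in the mice with the floxed alleles, at 18.4 ± 4.35 RPKM after OLM and 16.2 ± 1.62 RPKM in the homecage (SD, n = 8 each). Old wildtype mice had 30.3 ± 1.89 RPKM after OLM and 30.0 ± 1.63 RPKM in the homecage (SD, n = 6 each). The members were higher on average in old HDAC3flox/flox than in old wildtype mice, but not beyond the spread between mice. In the homecage, Gfap had a lowest value of 431, a median of 579 and a highest of 762 RPKM in the 8 HDAC3flox/flox mice, against 121.3, 442 and 581 RPKM in the 6 wildtype mice. Its log2 fold change was 0.54 (SE 0.29, adjusted p = 0.45 by limma), and the ranges overlapped. All 10 fold changes were positive, from 0.16 (Steap4) to 0.92 (Vim), with a median of 0.59, and 0 members were called, with 0 at an unadjusted p under 0.05. Of all genes, 0% were called higher and 0.127% lower by limma, and 511 were higher at an unadjusted p under 0.05. Without mice OWT-HC-110A and OWT-BV-104C, the fold change of Lcn2 turned to -0.35 and that of Steap4 to -0.13, and that of Gfap was 0.21. Some lists of other cells also had positive medians in the homecage, while those of endothelial (-0.01), neuronal (-0.01) and homeostatic astrocyte genes (0.01) were near 0. The median log2 fold change was 0.50 for microglia genes (12 of 12 positive), 0.63 for T cell genes (7 of 7), 0.60 for oligodendrocyte genes (7 of 7, all at an unadjusted p under 0.05), 1.07 for ependymal genes (6 of 6) and 1.55 for choroid plexus genes (8 of 8), and 0 genes of these lists were called. Their part in the difference of the members was not tested.

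After OLM, Lcn2 had a lowest value of 3.05, a median of 16.09 and a highest of 99.6 RPKM in 8 HDAC3flox/flox mice, against 0.821, 6.59 and 14.6 RPKM in 6 wildtype mice. The ranges overlapped, and its log2 fold change of 1.81 (SE 0.80) had an unadjusted p of 0.040 and an adjusted p of 0.99997 by limma. All 10 members had positive values, from 0.24 (Gfap) to 1.81 (Lcn2), with a median of 0.60, and 0 were called, with 1 at an unadjusted p under 0.05. Of all genes, 0.0141% were called higher and 0.254% lower. The medians of other lists were -0.03 for microglia, 0.21 for T cell, 0.02 for oligodendrocyte, -0.29 for ependymal and -0.86 for choroid plexus genes, with 0 called. The 2 genotype comparisons use different mice.

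Training was compared with the homecage in each kind of mouse. In old HDAC3flox/flox mice, Timp1 had a lowest value of 0.961, a median of 3.53 and a highest of 23.8 RPKM after OLM, against 4.34, 9.43 and 57.2 RPKM in the homecage (log2 fold change -1.50, SE 0.63, adjusted p = 0.24 by limma). Vim had 44.4, 102.3 and 525 RPKM after OLM, against 99.1, 315 and 642 RPKM in the homecage (-1.22, SE 0.52, adjusted p = 0.25). Both genes overlapped between the groups. All 10 members had negative fold changes, with a median of -0.91, of which 7 had an unadjusted p under 0.05 and 0 were called. The background was 0% called higher and 0% lower by limma, with 654 genes higher and 1774 lower at an unadjusted p under 0.05. Some alternatives called members lower, and they also called many other genes. With a model of all 40 libraries 6 members were called lower, with 16.1% of all genes lower and 9.54% higher. With library weights 10 members were, with 30% of all genes lower and 20.7% higher. Without OLM mouse H3F-BV-113D 8 were, with 15.4% lower and 6.46% higher, and without homecage mouse H3F-HC-112B 6 were, with 11.8% lower and 4.18% higher.

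In old wildtype mice the fold changes after OLM were also negative. Lcn2 had the 6 OLM values given above, from 0.821 to 14.6 RPKM, against 0.314 to 177 RPKM in the homecage (log2 fold change -2.51, SE 1.13, adjusted p = 0.53 by limma). Of its 6 homecage mice, 5 were above every OLM mouse and mouse OWT-HC-110A was below every one. Gfap had a fold change of -0.15 (SE 0.37). All 10 members were negative with a median of -0.90, and 0 were called, with 1 at an unadjusted p under 0.05, against 0% of genes called higher and 0% lower (503 higher and 622 lower at an unadjusted p under 0.05). Without homecage mouse OWT-HC-110A, 9 members were called lower, all but Gfap, with 10.1% of all genes lower and 2.94% higher. With library weights 7 members were, with 12.4% of all genes lower and 4.36% higher. With mice OWT-HC-110A and OWT-BV-104C both left out, 0 were called.

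In young wildtype mice no member was called after OLM. Osmr had 1.23, 0.925, 1.12, 1.16, 0.9996 and 0.955 RPKM after OLM, against 0.734, 0.865, 1.08, 0.713, 0.973 and 0.846 RPKM in the homecage, with overlapping ranges (log2 fold change 0.20, SE 0.08, unadjusted p = 0.025 and adjusted p = 0.40 by limma). Fold changes ran from -0.07 (S1pr3) to 0.27 (Vim). Of all genes, 0.31% were called higher and 0.113% lower. The difference of the training effect between old HDAC3flox/flox and old wildtype mice had a median of 0.01 over the members and ran from -0.30 (Gfap) to 1.13 (Lcn2, SE 1.42), and 0 were called or had an unadjusted p under 0.05. Of all genes, 0% were called higher and 0% lower by limma, with 360 higher and 236 lower at an unadjusted p under 0.05.

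Other genes of the astrocyte and of its surroundings were read in the same fits. Of 15 homeostatic astrocyte genes, 4 were called higher and 6 lower in old against young wildtype homecage mice, with a median of 0.00398, and under median-ratio scaling this median was -0.05. Aqp4, the water channel of astrocyte endfeet, rose (0.93, SE 0.18, adjusted p = 0.0034 by limma), while Slc1a2, the main glutamate transporter, fell (-0.64, SE 0.12, adjusted p = 0.0030), and Atp1b2, a sodium pump subunit, rose by 0.34 (SE 0.05). Chosen after their values were seen, Aldh1l1 and Sox9 were the other genes called higher. Of the 6 called lower, only Slc1a2 is named here. Of all genes tested, 32.1% were called higher and 17.7% lower in this comparison. Of 15 tested genes of the cytokine and JAK-STAT pathway, 12 were called higher and 0 lower (median 1.07). Stat3 averaged 39.2 ± 14.5 RPKM in old homecage mice and 11.0 ± 0.58 RPKM in young homecage mice (SD, n = 6 each), Cebpd rose by 1.1999 (SE 0.20) and Bcl3 by 3.19 (SE 0.55). Of the panel described for astrocytes after inflammation (A1), 9 of 11 tested genes were called higher, with the lowest p for H2-D1 (4.07, SE 0.66), Psmb8 and Serping1. Of the panel described after ischemia (A2), 6 of 10 were, with the lowest p for Tgm1 (3.62, SE 0.65), Cd109 and Cd14. Aspg and Cxcl10, from a list of 3 further reactive genes, were called higher and Hspb1 was not.

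Markers of immune cells were also higher in old homecage mice. The main fit called 32.1% of all genes higher in old than in young mice in the homecage and 19.1% after OLM. Of 12 microglia genes, 11 were called higher and 1 lower in old against young homecage mice (median 1.77), with the lowest p for C1qa (2.87, SE 0.45), Tmem119 and C1qc. The lower one, named after its value was seen, was P2ry12 (-0.39), a purine receptor of resting microglia. All 7 T cell genes were called higher (median 2.38), with the lowest p for Cd3g, Cd8a and Lck, and so were Plac8, Ccr2 and Ly6c2, which mark monocytes and lymphocytes among other cells. The summed level of the T cell list was 0.963 to 66.5 RPKM in old wildtype homecage mice, against 0.477 to 0.961 RPKM in young homecage mice. With young sums this low, a lower call was hardly possible for the T cell genes. Library OWT-HC-110A had the lowest sum of its group for the members (185 RPKM), the microglia list (354 RPKM) and the T cell list (0.963 RPKM), and mouse OWT-BV-104C likewise. The T cell marker Cd3g was at 0 in all 6 young OLM mice. Of 10 genes of neutrophils and monocytes 4 passed the filter, and their 10 levels summed to 0.393 to 204 RPKM in old wildtype homecage mice, against 0.491 to 5.62 RPKM in young homecage mice. Neutrophils are known to express Lcn2. Of their granule genes, named after their values were seen, Camp averaged 0.0114 RPKM in old wildtype homecage mice and 0.0568 RPKM in young homecage mice, Ngp 0.0162 and 0.0806 RPKM, and Ltf 0.0206 and 0.0155 RPKM. These values rest on few reads, and the other listed genes below the filter are not given. Mouse YWT-HC-1931 had the young homecage sum of 5.62 RPKM, against a group median of 0.696 RPKM. The young averages may thus rest largely on 1 mouse, and no direction is read from them. S100a8, not a granule gene, averaged 0.584 and 0.491 RPKM. Comparisons of old mice in which S100a8 had an unadjusted p under 0.05 are given first. In old HDAC3flox/flox against old wildtype mice after OLM it had 0.61 (unadjusted p = 0.023 by limma), beside 1.81 for Lcn2. In old wildtype mice after OLM against the homecage it had -0.79 (unadjusted p = 0.020 by limma), beside -2.51 for Lcn2. Both use old wildtype OLM mice, where it averaged 0.084 RPKM (SD 0.154), a value of few reads. In old against young wildtype mice after OLM it had -0.043, beside 3.19 for Lcn2. The homecage genotype comparison gave 0.37 (unadjusted p = 0.45 by limma), beside 0.68 for Lcn2. S100a8 was called in none of these. After OLM, 11 of 12 microglia genes (median 1.51) and 7 of 7 T cell genes (1.43) were called higher in old than in young mice, beside a median of 1.56 for the members. The part of microglia, T cells, monocytes and neutrophils in the members' levels was not tested.

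Lists of other cells had medians near or below 0 in old against young homecage mice. Endothelial genes had a median of 0.07 (Ly6c1 and Esam of 9 called higher and Slco1a4 lower), meningeal fibroblast genes -0.18 (Igf2 of 8 lower), neuronal genes -0.14 (Stmn2, Syt1 and Snap25 of 8 lower and, named after its value was seen, Gad2 higher), ependymal genes -1.14 (5 of 6 lower, of which Ccdc153, Pifo and Rsph1 had the lowest p) and choroid plexus genes -1.74 (5 of 8 lower, of which Ttr, Sostdc1 and Clic6 had the lowest p). Of 7 oligodendrocyte genes 3 were called lower (Mbp, Mobp and Mog), with a median of -0.32. After OLM the old against young medians were 0.12 for choroid plexus genes (0 of 8 called), -0.79 for ependymal genes (2 of 6 lower) and -0.33 for oligodendrocyte genes (3 of 7 lower). In the training comparison of old HDAC3flox/flox mice, the microglia list had a median of -0.84 (12 of 12 at an unadjusted p under 0.05, 0 called), the T cell list -1.42 and the oligodendrocyte list -0.38, beside -0.91 for the members and 0.02 for homeostatic astrocyte genes. In that of old wildtype mice the medians were -0.40 for microglia, -0.97 for T cell, 0.15 for oligodendrocyte and 1.82 for choroid plexus genes, beside -0.90 for the members and -0.03 for homeostatic astrocyte genes. The 4 tested genes of neutrophils and monocytes had training medians of -1.97 in old HDAC3flox/flox mice and -1.15 in old wildtype mice. The A1 panel had -1.49 and -0.65, and the cytokine and JAK-STAT genes -0.46 and -0.43, with 0 called.

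**Figure D4:**
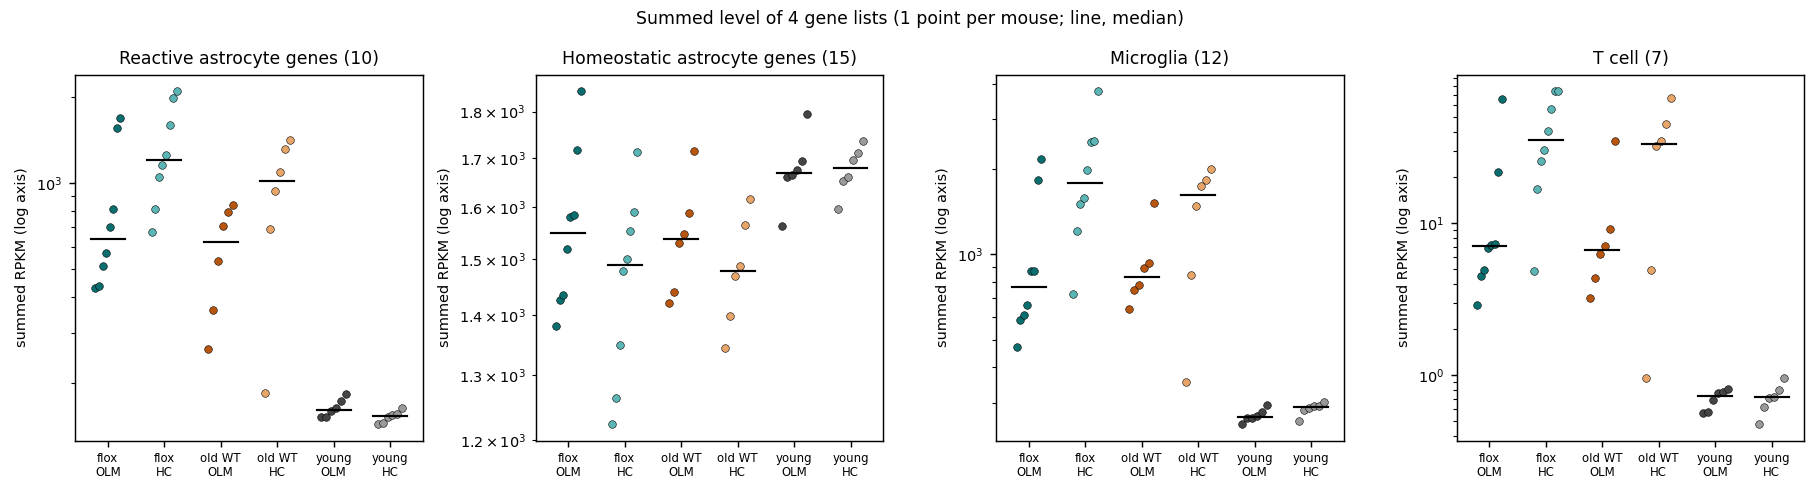
Summed RPKM (y axis, log scale) of 4 gene lists in each mouse by group (x axis), with a line at the median. The sums of the 10 members run from 144 to 184 RPKM in young mice and from 185 to 2093 RPKM in old mice. Those of homeostatic astrocyte genes lie between 1224 and 1846 RPKM over all mice. Their homecage medians are 1679 RPKM in young and 1478 RPKM in old wildtype mice.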

How the data were processed

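RNA of the dorsal hippocampus of 40 mice was sequenced (poly(A), single reads of 50 bases, an unstranded kit). The RPKM values were made by the authors before they were deposited: reads filtered with CASAVA 1.8.2 were aligned with ELAND and Bowtie to mm10, only uniquely placed reads were kept, and counts were divided by exon length and mapped reads. Columns of the authors' own comparisons were not used. No read counts were used, and depth was estimated from the steps of the 80 lowest values of 753 genes under 400 bases, taking a step to be 1 base of a sequenced read, as 12.7 to 38.9 M reads (median 25.3 M). One read on 1 kb is then worth 0.0257 to 0.0787 RPKM, so values of Lcn2, Steap4 and Timp1 in young mice rest on few reads. No libraries were identical. The labels give no sex, batch or flow cell per library. The paper reports females and males in every group. Their share of females was larger in the old HDAC3flox/flox and young groups than in the old wildtype groups. The genotype and age comparisons were therefore not balanced for sex, and its part was not tested.

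Comparisons used limma 3.58.1 in R 4.3.3 (empirical Bayes with trend) on log2(RPKM + 0.5), with the libraries of the groups compared. They covered 14173 genes whose mean over all 40 libraries reached 0.5 RPKM. Genes were called at p under 0.05 and Benjamini-Hochberg adjusted p under 0.15 over all genes. The fit was tested on simulated data. Each library is 1 mouse. One gene of the oligodendrocyte list is not reported here, and its values are left out of that list. The members and lists were chosen with earlier results of these data known. Named genes are all members, in every list the 3 of lowest p, the 8 most alike genes and the Serpina3 family, besides Hdac3 as the targeted gene and genes said to be named after their values were seen. Alternatives were other pseudocounts, filters, scalings, thresholds, a model of all libraries, library weights, a regularized t on RPKM, and leaving out mice. Leaving out mice OWT-HC-110A and OWT-BV-104C together, and H3F-HC-121B and H3F-BV-108D together, was chosen after seeing the data. All else was computed in Python 3.11.15 (pandas 2.3.3, numpy 2.4.6, scipy 1.17.1) and drawn with matplotlib 3.10.9.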

Additional observations from a re-analysis of the deposited data

Results flagged for a closer look

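In 60 sets of 1 member in 1 group, 6 values stood farther from the rest of their group than Dixon's 95% limit on log2(RPKM + 0.5). Chance gives about 1 in 20 such sets. Of the 6, 4 belong to old wildtype homecage mouse OWT-HC-110A. Gfap was 121.3 RPKM there, against 396 to 581 RPKM in the other 5 mice. Lcn2 was 0.314 RPKM, against 35.5 to 177 RPKM. Osmr was 0.891 RPKM, against 5.75 to 14.4 RPKM. S1pr3 was 1.87 RPKM, against 10.9 to 21.5 RPKM. The other 2 belong to young OLM mouse YWT-BV-1923, which had 0.800 RPKM of Steap4, against 0.0381 to 0.119 RPKM in its group, and 2.52 RPKM of S1pr3, against 1.81 to 2.05 RPKM.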

How the results depend on the processing

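All members kept a higher level in old than in young mice under every alternative run, without a reversal in 458 refits of single members. In the homecage 10 were called under all of them except the minimum mean of 1 RPKM, which leaves out Steap4. After OLM, leaving out 1 mouse gave 8 to 10 called members. A regularized t on RPKM called 10 and 9. For these settings the shares of all genes called are not given, beside 32.1% and 19.1% called higher in the main fit. The counts of members alone therefore do not set them apart from other genes. Calls of the training comparisons in old mice depended on the mice and the model, and the regularized t called 0 there. In old wildtype mice library weights called 7 members (12.4% of all genes lower), and leaving out 1 mouse gave 0 to 9 (10.1% at the most). In old HDAC3flox/flox mice a model of all 40 libraries called 6 (16.1% of all genes lower), library weights 10 (30%), and leaving out 1 mouse 0 to 8 (15.4% at the most). Both genotype comparisons and the interaction called 0 members under all alternatives run, and so did the young training comparison. No paired analysis was possible because no replicate numbers are shared between groups.

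Several small differences changed sign. Leaving out 1 mouse gave -0.35 to 1.202 (log2) for the homecage genotype difference of Lcn2 and -0.13 to 0.41 for that of Steap4, and library weights gave -0.078 for Lcn2. Without mice OWT-HC-110A and OWT-BV-104C these were -0.35 and -0.13. In old wildtype training Gfap ran from -0.48 to 0.021. In young training, leaving out 1 mouse gave -0.046 to 0.036 for Serpina3n, -0.14 to 0.17 for Steap4, -0.071 to 0.18 for Cp, -0.11 to 0.0079 for Timp1 and -0.053 to 0.016 for Lcn2, library weights gave 0.043 for Serpina3n and -0.039 for Steap4, and quantile normalization 0.0048 for Lcn2. For the interaction the ranges were -0.19 to 0.48 for Serpina3n, -0.19 to 0.50 for Osmr, -0.21 to 0.52 for S1pr3, -0.47 to 0.034 for Gfap, -0.52 to 0.32 for Vim, -0.29 to 0.51 for Cd44, -0.35 to 0.25 for Cp, -0.56 to 0.43 for Timp1 and -0.015 to 0.53 for Steap4. Quantile normalization gave 0.032 for Cd44, library weights 0.33 for Timp1, and the regularized t 0.21 for Serpina3n and 0.32 for S1pr3. Without mice OWT-HC-110A and OWT-BV-104C it was 0.022 for Vim, 0.23 for Cd44, 0.070 for Cp and 0.014 for Timp1, and without H3F-HC-121B and H3F-BV-108D -0.049 for Serpina3n, -0.075 for Osmr and -0.13 for S1pr3. The causes were not tested.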
